A study of Mus musculus with 55 samples.

Results

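The 40 genes described here are Nfe2l2, which encodes the transcription factor NRF2, with its regulators, a set of its known targets, and the enzymes that make and recycle glutathione or remove peroxides and superoxide. They were taken by name, from a list drawn up with earlier results of these data known, among the 24475 gene symbols of the count table. All 40 were among the 13311 genes that passed the filter on low counts. The series asks what follows in the liver of a mouse with a urea cycle defect when glutaminase 2 (Gls2) or glutamate dehydrogenase (Glud1), which release ammonia, is lowered by an adeno-associated virus (AAV) that carries a short hairpin RNA.

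The mutant strain, called OTC, was B6EiC3Sn a/A-Otcspf-ash/J, whose variant of the X-linked gene Otc lowers ornithine transcarbamylase, and WT mice were the hybrid B6EiC3SnF1/J. Each strain received a hairpin against Gls2 (sh-Gls2), a hairpin against Glud1 (sh-Glud1) or a scrambled hairpin (control). There were 10 OTC sh-Gls2, 8 OTC sh-Glud1, 8 OTC control, 10 WT sh-Gls2, 9 WT sh-Glud1 and 10 WT control livers, 1 library each. All mice were male and 4 months old at the intravenous injection in week 0, all ate a diet of 40% protein from week 2, and all livers were taken in week 5. The controls therefore carried virus and diet too. The labels name 1 vector per target, so an effect of lower Gls2 and an effect of that vector cannot be told apart.

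NRF2 is held in the cytoplasm by KEAP1, which hands it to a ubiquitin ligase for destruction. Oxidants and electrophiles modify KEAP1, and p62 (Sqstm1) can bind it and draw it away. NRF2 then enters the nucleus, pairs with small MAF proteins and binds antioxidant response elements near its target genes. In liver its targets supply glutathione and NADPH, reduce quinones and carbonyls, conjugate drugs and keep thioredoxin and peroxiredoxins reduced.

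The core of that element, TGACNNNGC, was searched on both strands in RefSeq promoter windows of 300 bases, 250 before and 50 after a start site (GRCm38.p6). Windows were found for 36 of the 40 genes, and those of Gclc, Gsr, Prdx6 and Sod3 were not found. At least 1 match stood in a window of 11 of these 36 genes (30.6%), against 3781 of 27025 genes in all (14%). The heptamer TGACTCA, read on both strands, can overlap this core and stood in 11.1% of the genes, against 5.95% of all genes. A match describes these letters and is not evidence of binding. Matches also stood in Ggct, G6pdx and Sod1, which rose under sh-Gls2 in neither strain, and in Gclm and Pgd, which rose in OTC only. Sqstm1, Gss, Txn1 and Gpx4 rose in both strains and held none. Whether a match goes with a rise was not tested. Below, the 250 bases before the start site are given for 4 genes that rose under sh-Gls2 in both strains and hold a match, with the match in capitals. Ggt1 and Srxn1 also rose in both and hold a match but are not printed.
Nfe2l2, chr2:75704664-75704913, minus strand: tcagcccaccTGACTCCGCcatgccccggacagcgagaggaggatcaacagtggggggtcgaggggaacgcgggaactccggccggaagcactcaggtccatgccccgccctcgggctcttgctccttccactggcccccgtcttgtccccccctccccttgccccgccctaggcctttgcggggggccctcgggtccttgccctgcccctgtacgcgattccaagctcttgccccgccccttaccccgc
Ugdh, chr5:65435843-65436092, minus strand: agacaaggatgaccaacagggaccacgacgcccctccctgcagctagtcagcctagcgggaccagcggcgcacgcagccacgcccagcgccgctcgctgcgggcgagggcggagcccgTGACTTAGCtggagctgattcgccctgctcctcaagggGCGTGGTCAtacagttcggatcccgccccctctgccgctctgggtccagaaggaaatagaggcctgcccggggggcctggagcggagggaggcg
Txnrd1, chr10:82858956-82859205, plus strand: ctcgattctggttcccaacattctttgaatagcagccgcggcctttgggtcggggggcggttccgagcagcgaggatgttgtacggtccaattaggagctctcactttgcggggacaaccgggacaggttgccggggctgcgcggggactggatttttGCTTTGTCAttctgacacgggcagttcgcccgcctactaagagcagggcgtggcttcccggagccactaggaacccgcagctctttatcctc
Prdx1, chr4:116685349-116685598, plus strand: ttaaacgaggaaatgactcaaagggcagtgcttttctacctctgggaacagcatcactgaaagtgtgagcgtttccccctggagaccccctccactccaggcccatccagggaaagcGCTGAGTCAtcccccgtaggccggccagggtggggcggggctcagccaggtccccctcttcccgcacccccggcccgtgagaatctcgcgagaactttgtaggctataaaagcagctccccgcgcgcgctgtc
The match of Nfe2l2 began 240 bases before the start site on its own strand, and Ugdh held 1 match on each strand, at 132 and 94 bases. The matches of Txnrd1 (in 1 of its 3 windows) and Prdx1 lay on the opposite strand, at 92 and 133 bases, and that of Prdx1 contains TGACTCA.

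Library totals were 14489866 to 22781052 counts, and the labels were checked against the targeted genes. Gls2 was at 159.4 to 235.8 CPM (counts scaled to library size) in OTC sh-Gls2 livers, against 332.1 to 554.2 CPM in OTC control livers, and at 158.7 to 255.0 CPM in WT sh-Gls2 livers, against 338.9 to 577.7 CPM in WT control livers. Glud1 was likewise lower in every sh-Glud1 liver than in any other liver, and Otc in every OTC liver than in any WT liver. Hepatocyte markers summed to between 79280 and 141200 CPM in every library. Earlier results of these data set apart WT control mouse m13 and OTC control mice m03 and m67. Among the 8 OTC controls, m03 and m67 were lowest for Nfe2l2 (48.15 and 47.74 CPM) and for Ugdh (77.33 and 92.90 CPM), so results that rest on them are also given without them.

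Per length, the levels of the 40 genes differed widely. On the scale of TPM (transcript abundance per length and depth), averaged over the 55 libraries, the glutathione peroxidase Gpx1 stood at 2206, catalase (Cat) at 1997, the cytosolic superoxide dismutase Sod1 at 1428 and the peroxiredoxin Prdx1 at 1248. Nfe2l2 stood at 57.98 TPM and Keap1 at 25.7 TPM. At the bottom were the carbonyl reductase Cbr3 at 1.91, the gastrointestinal glutathione peroxidase Gpx2 at 0.593, the glutathione-cleaving ectoenzyme Ggt1 at 0.423 and the cystine importer Slc7a11 at 0.0522 TPM. All levels from here on are CPM scaled by library factors (TMM), and all differences are log2 fold changes.

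Under sh-Gls2 more of the 40 genes rose than fell in both strains. In OTC livers 21 of 40 rose (52.5%, against 20.2% of all tested genes that rose) and 2 fell (5%, against 22.6%), and 42.7% of all tested genes were called either way. In WT livers 22 of 40 rose (55%, against 17.6%) and 2 fell (5%, against 17.2%), and 34.8% of all were called either way. The median log2 fold change of the 40 was 0.30 in OTC and 0.28 in WT, beside −0.02 and −0.01 over all tested genes. In both strains 18 genes rose and 2 fell, these being the mitochondrial enzymes Txnrd2 and Sod2. The share of all tested genes called the same way in both strains was not counted. Another 4 passed the test as risen in WT (Nqo1, Ephx1, Glrx, Prdx5) and not in OTC, and 3 in OTC (Gclm, Pgd, Gpx3) and not in WT, which is no test of a difference between strains. Calls are edgeR quasi-likelihood tests with an adjusted p below 0.05 over all 13311 genes. In RNA from whole liver, a change in the number of cells of a type and a change in RNA per cell cannot be told apart.

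**Figure D1:**
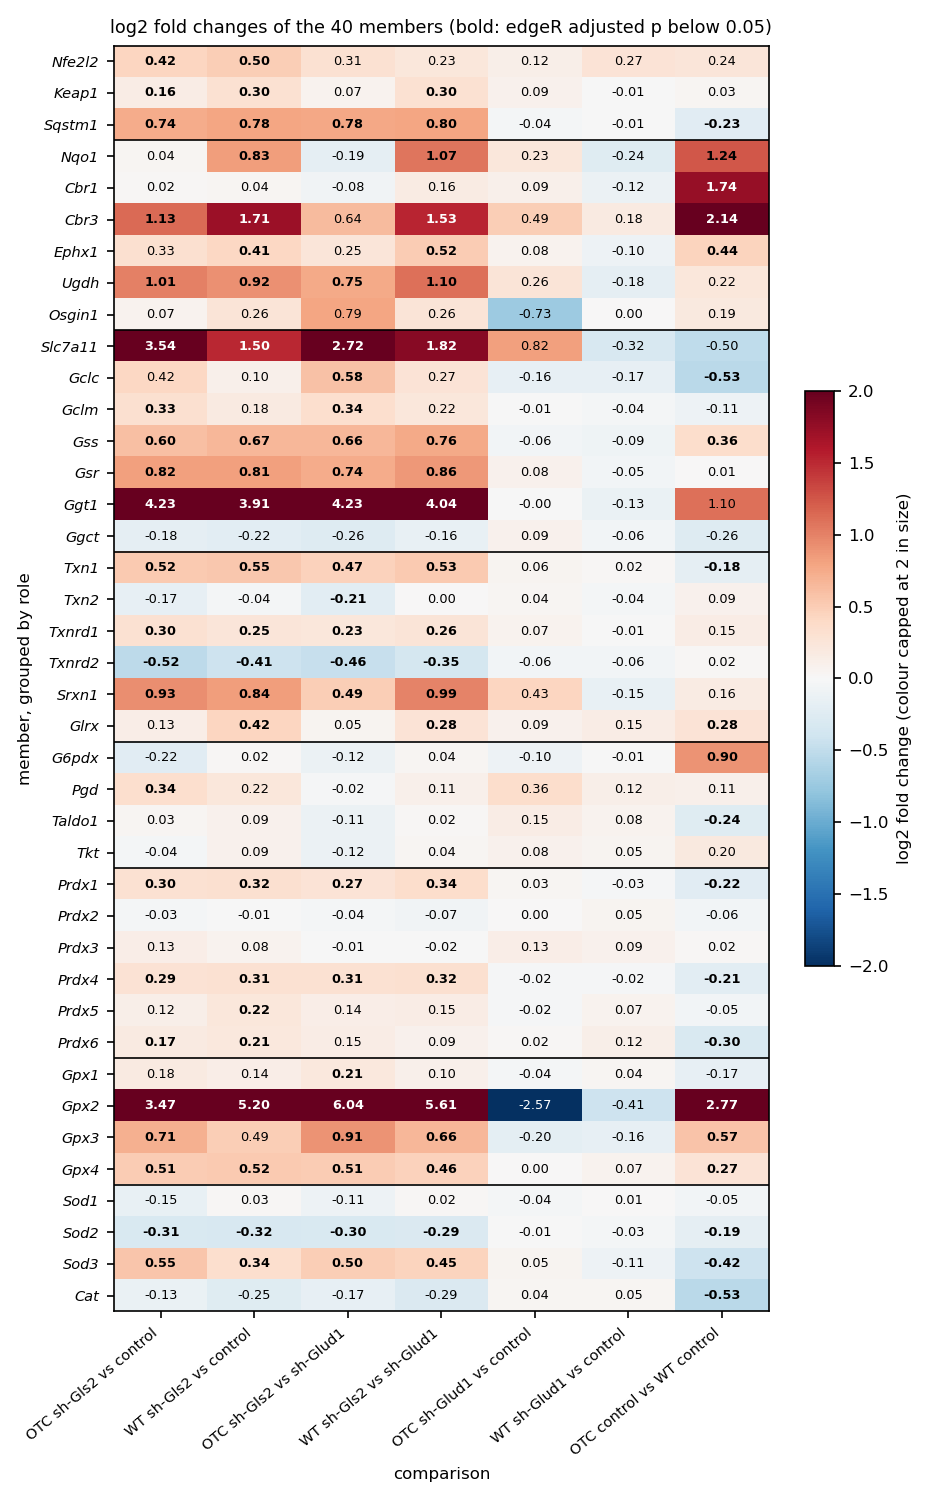
Log2 fold changes of the 40 genes (rows, grouped by role) in 7 comparisons (columns); red is higher and blue lower in the group named first, colour is capped at 2 in size, and bold marks an edgeR adjusted p below 0.05. Bold values stand in the 4 columns with sh-Gls2 on top and in the comparison of OTC with WT controls, and none stands in the columns of sh-Glud1 against control.

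All 3 regulators rose under sh-Gls2 against control in both strains (20.2% of all tested genes rose in OTC and 17.6% in WT). Against sh-Glud1, given below, only Sqstm1 of these rose in both. Nfe2l2 (GRCm38 chromosome 2, 75675513 to 75704641) ranged from 78.3 to 153.9 CPM with a median of 99.3 in OTC sh-Gls2 livers, against 47.7 to 99.3 CPM with a median of 82.6 in OTC control livers. In WT it ranged from 73.3 to 126.7 CPM (median 90.45) under sh-Gls2, against 37.9 to 92.0 CPM (median 64.25) under control. The ranges overlapped in both strains, with 5 of 10 sh-Gls2 livers above every control in each. Its log2 fold change was 0.42 ± 0.17 (SE) in OTC (edgeR adjusted p = 0.04) and 0.50 ± 0.16 in WT (edgeR adjusted p = 0.0132). The OTC call was lost without m03 and m67 and without any 1 of 9 single libraries (m03, m38, m43 and m67 of the controls; m31, m39, m60, m73 and m74 of sh-Gls2), with an edgeR adjusted p of up to 0.26.

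Keap1 (chromosome 9, 21229730 to 21239361), the adaptor that marks NRF2 for destruction, was at 51.8 to 59.4 CPM (median 53.5) in OTC sh-Gls2 livers, against 39.6 to 54.2 CPM (median 49.9) in OTC controls. In WT it was at 54.4 to 63.5 CPM (median 57.9) under sh-Gls2, against 45.3 to 50.6 CPM (median 48.3) under control, and here every sh-Gls2 liver lay above every control. The log2 fold change was 0.16 ± 0.05 in OTC (edgeR adjusted p = 0.0113), lost without m03 and m67 (edgeR adjusted p = 0.193), and 0.30 ± 0.05 in WT (edgeR adjusted p = 1.98e-06). Of the exonic 50-mers of Keap1, 7.78% are shared with a transcript on the opposite strand, Gm16754, and the sources used here do not say whether reads were counted by strand.

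Sqstm1, which encodes p62, moved further than either. It averaged 449 ± 54.6 CPM (SD, n = 10) in OTC sh-Gls2 livers, against 270 ± 33.2 CPM (SD, n = 8) in OTC controls, and 542 ± 60.2 CPM in WT sh-Gls2 livers, against 315 ± 18.2 CPM in WT controls (SD, n = 10 each). In both strains all 10 sh-Gls2 livers were above all controls. The log2 fold changes were 0.74 ± 0.08 in OTC (edgeR adjusted p = 5.04e-11) and 0.78 ± 0.07 in WT (edgeR adjusted p = 8.72e-13). Mrnip lies on the opposite strand and shares 15.5% of the 50-mers of Sqstm1.

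Ranges did not overlap for several of these genes. In OTC livers 8 of the 40 had every sh-Gls2 value above every control (3.59% of all tested genes did) and Sod2 had every value below (3.15%). In WT livers 9 did so upward (2.88%) and Sod2 downward (1.88%). Sqstm1, Ugdh, Gss, Gsr, Txn1 and Gpx4 were above in both strains, Slc7a11 and Ggt1 in OTC and Keap1, Prdx1 and Gpx2 in WT. Slc7a11, Ggt1 and Gpx2 had medians of at most 1.5 reads per library in the controls. They passed the filter on low counts only through sh-Gls2 livers, so their place in these counts depends on the group where they are high. Sqstm1, Gss, Txn1, Gpx4 and Sod2 are described with their levels because of these ranges, a choice made after their values were seen.

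**Figure D2:**
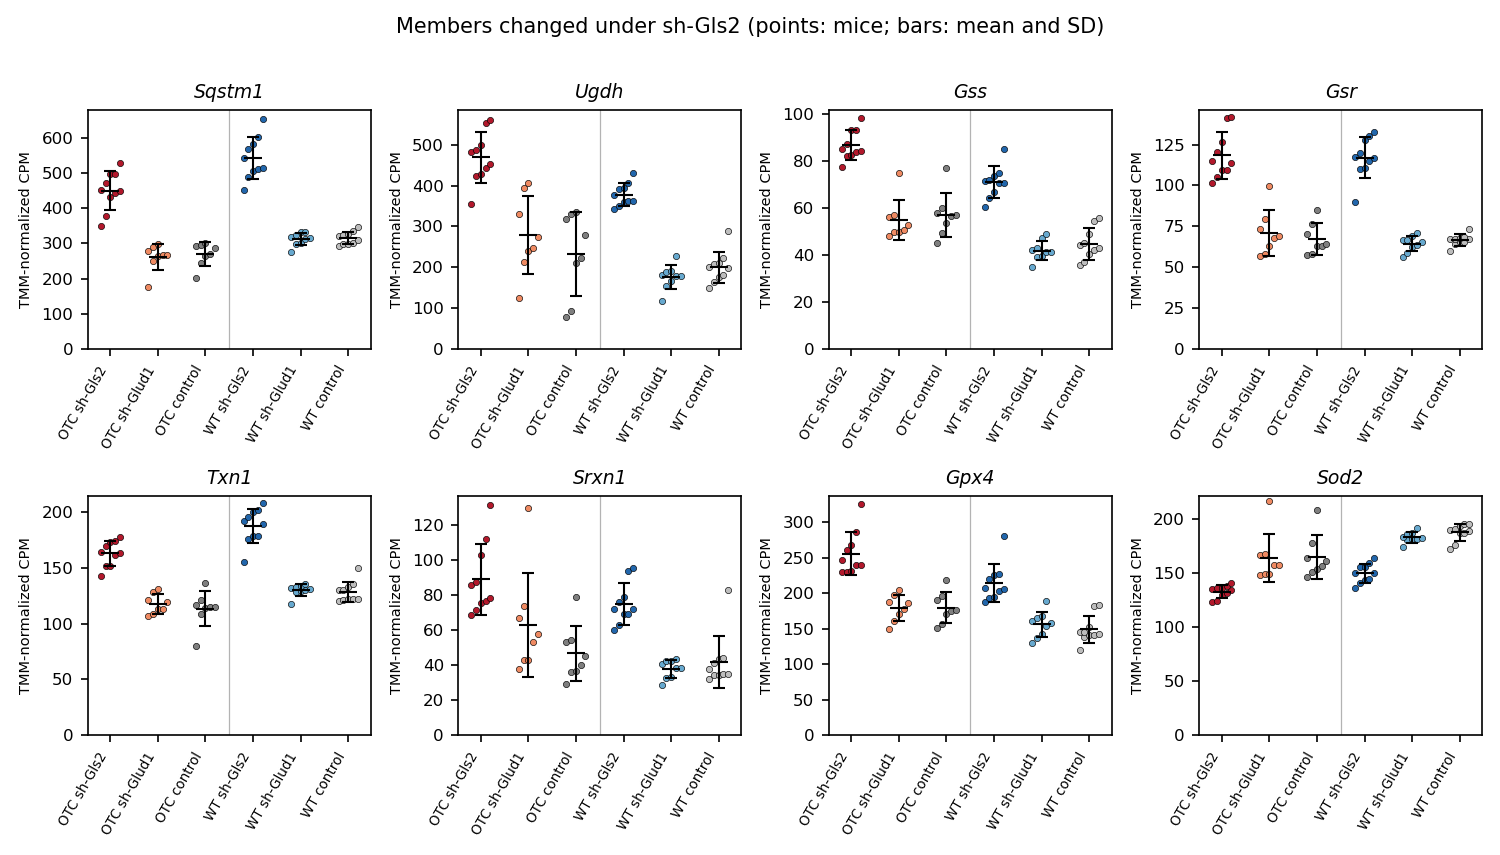
TMM-normalized CPM (vertical axis, from 0) of 8 genes in each of the 6 groups (horizontal axis); points are mice and bars the mean and SD. For Sqstm1, Gss, Gsr, Txn1 and Gpx4 the sh-Gls2 points of both strains stand above the control points, and for Sod2 below.

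The enzymes that reduce quinones and carbonyls or prepare conjugation split. Ugdh (chromosome 5, 65413221 to 65435949) makes UDP-glucuronate, the sugar donor of glucuronidation. It was at 353.9 to 560.6 CPM (median 468.3) in OTC sh-Gls2 livers, against 77.3 to 335.4 CPM (median 251.5) in OTC controls, and at 342.1 to 430.6 CPM (median 370.1) in WT sh-Gls2 livers, against 148.7 to 289.9 CPM (median 198.7) in WT controls. All sh-Gls2 livers lay above all controls, with log2 fold changes of 1.01 ± 0.19 in OTC (edgeR adjusted p = 1.81e-05) and 0.92 ± 0.17 in WT (edgeR adjusted p = 3.16e-05).

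Nqo1 (chromosome 8, 107388225 to 107403206), a quinone reductase often read as a marker of NRF2, passed the test in WT and not in OTC livers. It was at 9.05 to 17.7 CPM (median 11.3) in OTC sh-Gls2 livers, against 4.79 to 24.2 CPM (median 11.5) in OTC controls, whose range enclosed it. In WT it was at 6.65 to 12.0 CPM (median 8.85) under sh-Gls2, against 2.13 to 10.03 CPM (median 4.41) under control. The log2 fold change was 0.04 ± 0.24 in OTC (edgeR adjusted p = 0.907; 95% interval −0.42 to 0.51) and 0.83 ± 0.23 in WT (edgeR adjusted p = 0.00424). The difference of these effects between strains, −0.79 ± 0.33, did not pass the test (edgeR adjusted p = 0.346).

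Cbr3 (chromosome 16, 93683215 to 93690990) and Cbr1 (93605853 to 93610505) are carbonyl reductases that lie 72709 bases apart. Cbr3 was at 1.10 to 6.10 CPM (median 2.46) in OTC sh-Gls2 livers, against 0.258 to 3.13 CPM (median 1.12) in OTC controls, and at 0.427 to 2.31 CPM (median 0.780) in WT sh-Gls2 livers, against 0.0963 to 0.477 CPM (median 0.303) in WT controls. It rose by 1.13 ± 0.37 in OTC (edgeR adjusted p = 0.0114) and 1.71 ± 0.44 in WT (edgeR adjusted p = 0.00184), with overlapping ranges. Cbr1, at 82.9 to 165.3 CPM in OTC sh-Gls2 livers against 56.9 to 195.6 CPM in OTC controls, and at 31.1 to 56.2 CPM in WT sh-Gls2 livers against 23.98 to 65.3 CPM in WT controls, did not pass the test. Its log2 fold changes were 0.02 ± 0.18 in OTC and 0.04 ± 0.17 in WT (edgeR adjusted p = 0.949 and 0.873).

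Ephx1, a microsomal epoxide hydrolase, rose in WT by 0.41 ± 0.16 (edgeR adjusted p = 0.0384), a call that 10 of the 20 single omissions ended, with an edgeR adjusted p of up to 0.0833. Its log2 fold change in OTC was 0.33 ± 0.17 (edgeR adjusted p = 0.117). Osgin1, an oxidative stress gene linked to growth inhibition, varied from 14.01 to 322 CPM among OTC controls alone, and its log2 fold changes of 0.07 ± 0.39 in OTC and 0.26 ± 0.37 in WT did not pass the test.

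In the glutathione supply, 5 of 7 genes rose in OTC and 4 of 7 in WT (20.2% and 17.6% of all tested genes did). Of these, Slc7a11 and Ggt1 passed the filter on low counts only through sh-Gls2 livers, and Gclc was not among the risers. Gclc encodes the catalytic subunit of glutamate-cysteine ligase, the rate-limiting step. Its log2 fold changes were 0.42 ± 0.18 in OTC (edgeR adjusted p = 0.0524) and 0.10 ± 0.17 in WT (edgeR adjusted p = 0.676). The modifier subunit Gclm was at 130.0 ± 15.5 CPM (SD, n = 10) in OTC sh-Gls2 livers, against 103.5 ± 20.7 CPM (SD, n = 8) in OTC controls. Gclm rose by 0.33 ± 0.10 in OTC (edgeR adjusted p = 0.00457), lost without m03 and m67 (edgeR adjusted p = 0.0849), and in WT its log2 fold change was 0.18 ± 0.09 (edgeR adjusted p = 0.112).

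Gss, glutathione synthetase, averaged 86.6 ± 6.37 CPM (SD, n = 10) in OTC sh-Gls2 livers, against 57.1 ± 9.41 CPM (SD, n = 8) in OTC controls, and 70.97 ± 6.65 CPM in WT sh-Gls2 livers, against 44.6 ± 6.69 CPM in WT controls (SD, n = 10 each). The log2 fold changes were 0.60 ± 0.08 in OTC (edgeR adjusted p = 7.02e-08) and 0.67 ± 0.08 in WT (edgeR adjusted p = 1.08e-09). Acss2 and a pair of antisense transcripts share 10.3% of the 50-mers of Gss.

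Gsr (chromosome 8, 33652523 to 33698163), the reductase that returns oxidized glutathione to its reduced form, was among the clearest. It was at 101.3 to 141.8 CPM (median 114.6) in OTC sh-Gls2 livers, against 57.3 to 85.2 CPM (median 63.6) in OTC controls, and at 89.7 to 132.9 CPM (median 117.2) in WT sh-Gls2 livers, against 59.9 to 73.5 CPM (median 67) in WT controls. No sh-Gls2 value reached down to a control in either strain. The log2 fold changes were 0.82 ± 0.08 in OTC (edgeR adjusted p = 1.09e-11) and 0.81 ± 0.08 in WT (edgeR adjusted p = 1.37e-12), both 1.76-fold.

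Slc7a11 and Ggt1 bring in cystine and break down extracellular glutathione, and both are scarce in normal hepatocytes. Slc7a11 (chromosome 3, 49892526 to 50443614) had 7 to 55 reads per library (0.387 to 2.83 CPM, median 0.658) in OTC sh-Gls2 livers, against 0 to 4 reads (0 to 0.199 CPM, median 0.0522) in OTC controls. In WT it had 2 to 12 reads (0.126 to 0.636 CPM, median 0.283) under sh-Gls2, against 0 to 8 reads (0 to 0.359 CPM, median 0.0785) under control. The ranges were apart in OTC and overlapped in WT, with fitted log2 fold changes of 3.54 ± 0.50 (edgeR adjusted p = 1.17e-07) and 1.503 ± 0.496 (edgeR adjusted p = 0.015). From summed reads, 180 against 11 in OTC gave a 12.7-fold ratio (95% counting interval 6.91 to 25.8), and 55 against 20 in WT a 2.92-fold ratio (1.72 to 5.15).

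Ggt1 (chromosome 10, 75561604 to 75586200) had 13 to 167 reads (0.725 to 7.66 CPM, median 1.20) in OTC sh-Gls2 livers, against 1 to 4 reads (0.0496 to 0.216 CPM, median 0.0806) in OTC controls. In WT it had 3 to 37 reads (0.141 to 2.14 CPM, median 0.533) under sh-Gls2, against 0 to 3 reads (0 to 0.141 CPM, median 0.0468) under control, where 4 libraries had none. In OTC all sh-Gls2 livers lay above all controls, and in WT 9 of 10 did. It rose by 4.23 ± 0.50 in OTC (edgeR adjusted p = 1.54e-09) and 3.91 ± 0.57 in WT (edgeR adjusted p = 2.92e-07). The ratios of summed reads were 20.6 (95% counting interval 12.3 to 37.1) in OTC and 17 (8.37 to 40.2) in WT, and such intervals cover counting error only. OTC sh-Gls2 mouse m74 held 167 of the 399 reads, and without it the OTC ratio was 13.4 (7.99 to 24.4). Ggct, which releases 5-oxoproline from gamma-glutamyl peptides, did not pass the test, at −0.18 ± 0.14 in OTC and −0.22 ± 0.13 in WT.

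**Figure D3:**
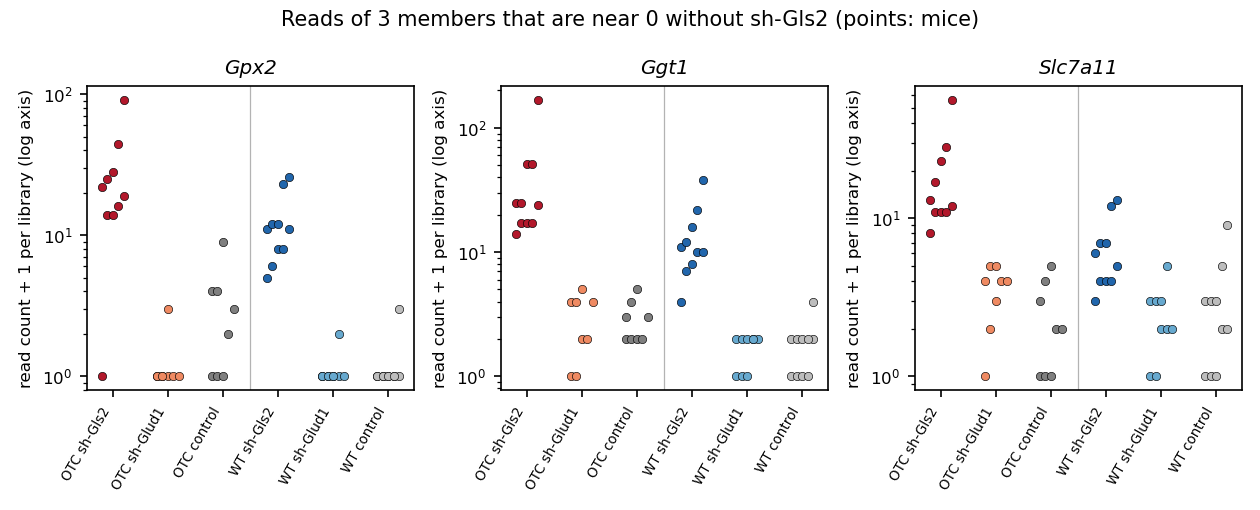
Read count plus 1 per library (vertical log axis) of Gpx2, Ggt1 and Slc7a11 in the 6 groups (horizontal axis), 1 point per mouse. Most libraries without sh-Gls2 had fewer than 5 reads of each gene, while sh-Gls2 libraries reached 90 reads of Gpx2, 167 of Ggt1 and 55 of Slc7a11.

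Among the thioredoxin genes, the cytosolic ones rose and a mitochondrial one fell. Txn1, cytosolic thioredoxin, averaged 163 ± 11.4 CPM (SD, n = 10) in OTC sh-Gls2 livers, against 113 ± 15.8 CPM (SD, n = 8) in OTC controls, and 187.5 ± 15.5 CPM in WT sh-Gls2 livers, against 128.5 ± 9.25 CPM in WT controls (SD, n = 10 each). It rose by 0.52 ± 0.06 in OTC (edgeR adjusted p = 8.56e-10) and 0.55 ± 0.06 in WT (edgeR adjusted p = 4.01e-11). Txnrd1, its cytosolic reductase, rose by 0.30 ± 0.09 in OTC (edgeR adjusted p = 0.00539), lost without m03 and m67 (edgeR adjusted p = 0.0568), and by 0.25 ± 0.08 in WT (edgeR adjusted p = 0.0185). Txnrd2, the mitochondrial reductase, averaged 20.6 ± 2.33 CPM (SD, n = 10) in OTC sh-Gls2 livers, against 29.6 ± 3.59 CPM (SD, n = 8) in OTC controls, and 21.9 ± 2.25 CPM in WT sh-Gls2 livers, against 29.2 ± 4.34 CPM in WT controls (SD, n = 10 each). Txnrd2 fell by 0.52 ± 0.08 in OTC (edgeR adjusted p = 1.66e-06) and by 0.41 ± 0.08 in WT (edgeR adjusted p = 4.57e-05). Mitochondrial thioredoxin, Txn2, did not pass the test (−0.17 ± 0.07 in OTC and −0.04 ± 0.07 in WT).

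Srxn1 (chromosome 2, 152105516 to 152111376), sulfiredoxin, which repairs over-oxidized peroxiredoxins, was at 68.7 to 131.3 CPM (median 81.9) in OTC sh-Gls2 livers, against 29.5 to 79.2 CPM (median 42.8) in OTC controls. In WT it was at 60.1 to 95.5 CPM (median 71.99) under sh-Gls2, against 31.9 to 82.8 CPM (median 36.4) under control. A single WT control, m07, stood at 82.8 CPM with the next at 43.9 CPM, so the WT ranges overlapped through that library. The log2 fold changes were 0.93 ± 0.18 in OTC (edgeR adjusted p = 4.38e-05) and 0.84 ± 0.17 in WT (edgeR adjusted p = 9.13e-05). Glrx, glutaredoxin, rose by 0.42 ± 0.10 in WT (edgeR adjusted p = 0.000635) and had 0.13 ± 0.10 in OTC (edgeR adjusted p = 0.313).

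Of the 4 pentose phosphate enzymes, 1 passed the test in OTC and none in WT (42.7% and 34.8% of all tested genes were called either way). Pgd, which makes NADPH from 6-phosphogluconate, rose by 0.34 ± 0.14 in OTC (edgeR adjusted p = 0.0471). Its call was lost without m03 and m67 and without any 1 of 10 single libraries, with an edgeR adjusted p of up to 0.397. G6pdx (chromosome X, 74409483 to 74429194), the entry enzyme, was at 5.09 to 10.6 CPM (median 7.79) in OTC sh-Gls2 livers, against 4.08 to 15.6 CPM (median 10.3) in OTC controls, and at 2.88 to 8.21 CPM (median 5.01) in WT sh-Gls2 livers, against 2.47 to 16.3 CPM (median 3.54) in WT controls. Its log2 fold changes were −0.22 ± 0.25 in OTC and 0.02 ± 0.25 in WT (edgeR adjusted p = 0.501 and 0.952). The transaldolase Taldo1 and the transketolase Tkt stayed between −0.04 and 0.09 without a call.

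Among the peroxiredoxins, which reduce hydrogen peroxide with thiols, Prdx1, Prdx4 and Prdx6 rose in both strains. Prdx1, cytosolic and the most abundant of them per length, averaged 736 ± 62.5 CPM (SD, n = 10) in OTC sh-Gls2 livers, against 597 ± 46.4 CPM (SD, n = 8) in OTC controls, and 870.3 ± 56.8 CPM in WT sh-Gls2 livers, against 698 ± 29.3 CPM in WT controls (SD, n = 10 each). It rose by 0.30 ± 0.05 in OTC (edgeR adjusted p = 1.32e-06) and 0.32 ± 0.05 in WT (edgeR adjusted p = 1.36e-07). Prdx4, of the endoplasmic reticulum, rose by 0.29 ± 0.08 and 0.31 ± 0.08 (edgeR adjusted p = 0.00422 and 0.00202), and the OTC call was lost without m03 and m67 (edgeR adjusted p = 0.0859). Prdx6 rose by 0.17 ± 0.07 and 0.21 ± 0.06 (edgeR adjusted p = 0.034 and 0.00749); its OTC call was lost without m03 and m67, or without 1 of 5 single libraries. Prdx5 rose in WT by 0.22 ± 0.06 (edgeR adjusted p = 0.00519) and had 0.12 ± 0.07 in OTC (edgeR adjusted p = 0.164). Prdx2 and the mitochondrial Prdx3 stayed within −0.03 to 0.13. Trmt112 lies on the opposite strand and shares 15.5% of the 50-mers of Prdx5. Other transcripts share 8.81% of those of Prdx1 and 12% of those of Prdx2.

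Among the glutathione peroxidases, Gpx2 (chromosome 12, 76792333 to 76795554) moved furthest of all 40 genes in WT. It had 4 to 25 reads per library (0.235 to 1.44 CPM, median 0.533) in WT sh-Gls2 livers, against 2 reads in 1 WT control and none in the other 9. In OTC livers it had 13 to 90 reads in 9 sh-Gls2 libraries and none in the other (0 to 4.13 CPM, median 0.958), against 0 to 8 reads (0 to 0.397 CPM, median 0.0926) in controls. The WT ranges were apart and the OTC ranges overlapped through the library with no read. The fitted log2 fold changes were 3.47 ± 0.52 in OTC (edgeR adjusted p = 4.62e-07) and 5.204 ± 0.74 in WT (edgeR adjusted p = 1.5e-07), and the fitted size depends on a few reads. Without OTC control m35 the first was 4.13, and without WT control m77, which held both reads, the second was 6.58. The ratios of summed reads were 12 (95% counting interval 7.36 to 20.9) in OTC, or 19.7 (10.2 to 43.5) without m35, and 59.5 (16.1 to 497) in WT.

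Gpx4, the peroxidase of membrane lipids that guards against ferroptosis, averaged 256 ± 30.9 CPM (SD, n = 10) in OTC sh-Gls2 livers, against 179 ± 21.9 CPM (SD, n = 8) in OTC controls, and 214 ± 26.5 CPM in WT sh-Gls2 livers, against 149 ± 19.3 CPM in WT controls (SD, n = 10 each). It rose by 0.51 ± 0.08 in OTC (edgeR adjusted p = 1.06e-06) and 0.52 ± 0.08 in WT (edgeR adjusted p = 2.1e-07). Its values are uncertain, because 34.7% of its 50-mers are shared with the pseudogene Gpx4-ps2 and another transcript. Gpx3 (chromosome 11, 54902453 to 54910377), the secreted peroxidase of plasma, was at 3.69 to 8.81 CPM (median 6.98) in OTC sh-Gls2 livers, against 1.62 to 9.40 CPM (median 3.22) in OTC controls, and at 2.42 to 5.28 CPM (median 3.86) in WT sh-Gls2 livers, against 1.31 to 4.27 CPM (median 2.80) in WT controls. The Gpx3 ranges overlapped, with 0.71 ± 0.22 in OTC (edgeR adjusted p = 0.00918) and 0.49 ± 0.22 in WT (edgeR adjusted p = 0.0724). Gpx1 did not pass the test in either strain, at 0.18 ± 0.08 in OTC and 0.14 ± 0.07 in WT (edgeR adjusted p = 0.0594 and 0.133).

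Among the superoxide dismutases, Sod2 fell and Sod3 rose in both strains. Sod2, of the mitochondrial matrix, averaged 133 ± 5.88 CPM (SD, n = 10) in OTC sh-Gls2 livers, against 165 ± 20.1 CPM (SD, n = 8) in OTC controls, and 150.1 ± 8.86 CPM in WT sh-Gls2 livers, against 188 ± 7.92 CPM in WT controls (SD, n = 10 each). It fell by 0.31 ± 0.05 in OTC (edgeR adjusted p = 5.79e-06) and by 0.32 ± 0.05 in WT (edgeR adjusted p = 1.35e-06). Sod3, the extracellular form, rose by 0.55 ± 0.10 in OTC (edgeR adjusted p = 1.18e-05) and 0.34 ± 0.09 in WT (edgeR adjusted p = 0.00324). Sod1 had −0.15 ± 0.06 in OTC and 0.03 ± 0.06 in WT, and Cat, the peroxisomal catalase, had −0.13 ± 0.13 in OTC and −0.25 ± 0.13 in WT, none of which passed the test. Other transcripts share 21% of the 50-mers of Sod2.

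Of the 40 genes, 36 had a median of at least 10 reads in every group, and without Slc7a11, Ggt1, Gpx2 and Cbr3 the counts were 17 higher and 2 lower in OTC and 18 higher and 2 lower in WT. Whether the sh-Gls2 effect differed between strains was tested directly, and 0 of 40 passed in edgeR (0.338% of all tested genes did; 5 of the 40 had an unadjusted p below 0.05). DESeq2 also called 0. The smallest adjusted p belonged to Slc7a11 (difference of the log2 fold changes, OTC minus WT, 2.04 ± 0.78, edgeR adjusted p = 0.285). Among the genes with more reads, the smallest unadjusted p was that of Nqo1, given above.

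**Figure D4:**
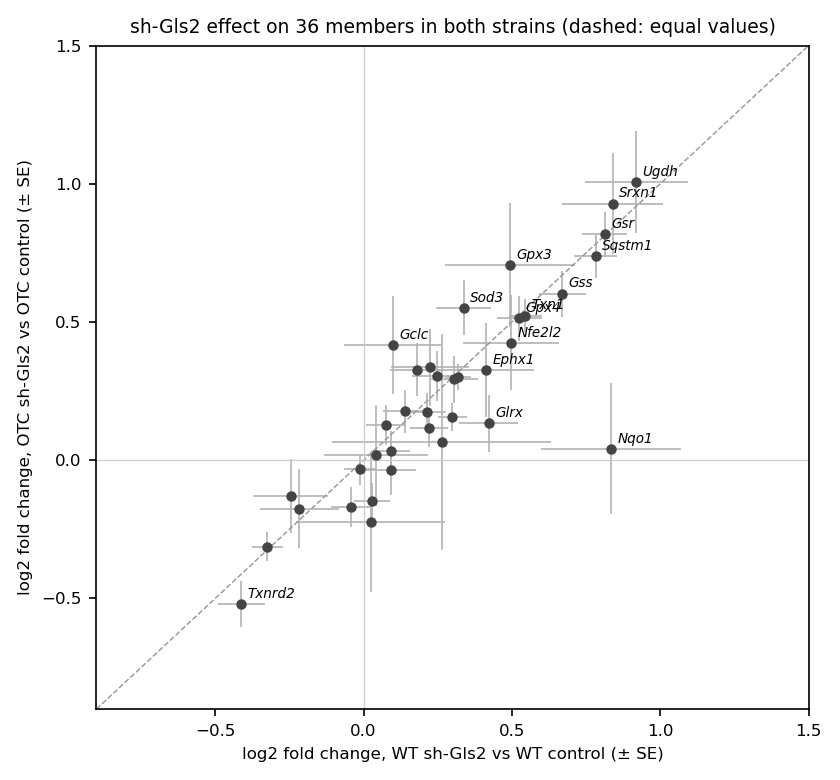
Log2 fold change under sh-Gls2 of the 36 genes with a median of at least 10 reads in every group, OTC sh-Gls2 against OTC control (vertical axis) by WT sh-Gls2 against WT control (horizontal axis), with SE bars and a dashed line of equal values. Points lie along the line from Txnrd2 at the lower left to Ugdh at the upper right, and Nqo1 stands to the right of it.

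Several cell type markers moved with these genes under sh-Gls2. Over all tested genes, 20.2% rose and 22.6% fell in OTC, and 17.6% rose and 17.2% fell in WT. Of 9 macrophage and Kupffer cell markers, 8 rose in OTC and 7 in WT, and their summed level was 182 to 322 CPM in OTC sh-Gls2 livers, against 89.4 to 216.7 CPM in OTC controls, and 163 to 257.6 CPM in WT sh-Gls2 livers, against 115 to 191.8 CPM in WT controls. Of 9 stellate cell markers, 5 rose in OTC and 4 in WT, with sums of 318 to 430.7 CPM in OTC sh-Gls2 livers, against 218.9 to 279.1 CPM in OTC controls, and of 240.0 to 409.9 CPM in WT sh-Gls2 livers, against 224.9 to 298.1 CPM in WT controls. Of 6 markers of dividing cells, 5 rose in OTC and all 6 in WT, with sums of 5.43 to 38.8 CPM in OTC sh-Gls2 livers, against 2.58 to 4.38 CPM in OTC controls, and 10.2 to 58.7 CPM in WT sh-Gls2 livers, against 3.07 to 8.61 CPM in WT controls. Of 6 liver endothelial markers, 5 rose in OTC and 1 in WT, with sums of 182.9 to 261.9 CPM in OTC sh-Gls2 livers, against 143.4 to 201.5 CPM in OTC controls, and of 172 to 220.6 CPM in WT sh-Gls2 livers, against 140.4 to 223.5 CPM in WT controls. In each strain 1 of 5 bile duct and 1 of 5 T and NK cell markers rose, and 0 of 4 B cell, 0 of 2 neutrophil and 0 of 5 erythroid markers passed the test. No marker of these lists was at 0 throughout a group. Of 8 hepatocyte markers 1 rose and 3 fell in OTC, and 1 rose and 2 fell in WT, with sums of 94050 to 120900 CPM in OTC sh-Gls2 livers, against 102600 to 141200 CPM in OTC controls, and of 88810 to 130000 CPM in WT sh-Gls2 livers, against 79280 to 123600 CPM in WT controls. The part of these cell types in the changes of the 40 genes was not tested.

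Other genes of the pathway were read from lists of known members. For scale, 20.2% of all tested genes rose and 22.6% fell in OTC, and 17.6% rose and 17.2% fell in WT. Of 29 tested NRF2 targets outside the 40, 13 rose and 4 fell in OTC (median log2 fold change 0.37), and 17 rose and 1 fell in WT (median 0.42). Leading them was Gsta1, a glutathione transferase, at 144.3 CPM in OTC sh-Gls2 livers against 10.99 CPM in OTC controls (3.71 ± 0.40, edgeR adjusted p = 1.42e-10), and at 142.9 CPM in WT sh-Gls2 livers against 13.8 CPM in WT controls (3.37 ± 0.36, edgeR adjusted p = 9e-11). Abcc4, an exporter of conjugates, rose by 2.78 ± 0.36 in OTC (edgeR adjusted p = 1.68e-08), and Gstm3, another transferase, by 2.12 ± 0.32 in WT (edgeR adjusted p = 6.21e-07). Sharing of sequence between members of the transferase families was not measured, and their single values are uncertain.

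NRF2 partners and regulators were mixed. In OTC 3 of 16 were higher and 2 lower (20.2% and 22.6% of all tested genes were). In WT 5 were higher and 3 lower (17.6% and 17.2%). Mafk, a small MAF partner, averaged 22.2 CPM in OTC sh-Gls2 livers against 11.6 CPM in OTC controls, and 22.95 CPM in WT sh-Gls2 livers against 10.5 CPM in WT controls. It rose by 0.93 ± 0.12 in OTC (edgeR adjusted p = 1.68e-08) and 1.13 ± 0.11 in WT (edgeR adjusted p = 1.55e-11). Dcaf11, a substrate receptor of the ubiquitin ligase CRL4 that has been reported to act on NRF2, fell by 0.52 ± 0.05 in OTC (edgeR adjusted p = 6.07e-13) and by 0.37 ± 0.04 in WT (edgeR adjusted p = 2.78e-09).

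The list of glutathione breakdown, use and transport also holds Cbs. Of its 21 tested genes, 3 rose and 5 fell in OTC (20.2% and 22.6% of all tested genes did), and 0 rose and 7 fell in WT (17.6% and 17.2%). Cbs, which starts the path from homocysteine to cysteine, fell by 0.63 ± 0.08 in OTC (edgeR adjusted p = 2.17e-09) and by 0.43 ± 0.07 in WT (edgeR adjusted p = 3.04e-06). Of 13 other suppliers of NADPH, 1 rose and 2 fell in OTC, and 1 rose and 1 fell in WT; the riser was the mitochondrial isocitrate dehydrogenase Idh2 (0.55 ± 0.12 and 0.60 ± 0.11, edgeR adjusted p = 0.000137 and 1.93e-05). Of 19 other thiol and selenium redox enzymes, 6 rose and 5 fell in OTC and 7 rose and 4 fell in WT.

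Against control, sh-Glud1 moved none of the 40 genes past the test. In OTC livers 0 of 40 were called in edgeR (0.015% of all tested genes were), 4 had an unadjusted p below 0.05 and the smallest adjusted p was 0.988. In WT livers 0 of 40 were called (0.0225%), 0 had an unadjusted p below 0.05 and the smallest adjusted p was 0.930. DESeq2 called 0 in both. The 4 in OTC were Gpx2 (2 reads in 8 sh-Glud1 libraries against 17 in 8 controls, −2.57 ± 1.05), Pgd (0.36 ± 0.15), Srxn1 (0.43 ± 0.19) and Taldo1 (0.15 ± 0.07). Gsr, which rose under sh-Gls2, had a median of 68.5 CPM in OTC sh-Glud1 livers against 63.6 CPM in OTC controls, and 65.4 CPM in WT sh-Glud1 livers against 67 CPM in WT controls. Its log2 fold changes were 0.08 (95% interval −0.09 to 0.24) in OTC and −0.05 (−0.20 to 0.10) in WT. The sh-Glud1 effects did not differ between strains for any of the 40 (0 called in edgeR and in DESeq2, 0% of all tested genes, 1 unadjusted p below 0.05). Nfe2l2 was at 39.2 to 112.4 CPM (median 96.8) in OTC sh-Glud1 livers and at 58.4 to 105.0 CPM (median 77.3) in WT sh-Glud1 livers.

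Set against sh-Glud1 instead of control, sh-Gls2 gave similar counts with other reference libraries, though not every gene kept its call. In OTC livers 18 of 40 were higher under sh-Gls2 (45%, against 19.5% of all tested genes) and 3 lower (7.5%, against 21.1%; 40.5% of all tested genes were called either way). In WT livers 20 were higher (50%, against 15.5%) and 2 lower (5%, against 14.2%), and 29.6% of all were called either way. Among the 36 genes with a median of at least 10 reads in every group, 15 were higher and 3 lower in OTC. In WT 16 of these were higher and 2 lower. All values lay above for 7 genes in OTC (3.33% of all tested genes) and 12 in WT (3.51%), and below for 1 in OTC (3.04%) and 3 in WT (2.67%). In all 4 comparisons that have sh-Gls2 on top, 14 genes were higher and Txnrd2 and Sod2 lower. The share of all tested genes called the same way in all 4 was not counted, and comparisons within a strain share their sh-Gls2 libraries. Of the 14, Slc7a11, Ggt1 and Gpx2 passed the filter on low counts only through sh-Gls2 livers. The 14 were Sqstm1, Ugdh, Slc7a11, Gss, Gsr, Ggt1, Txn1, Txnrd1, Srxn1, Prdx1, Prdx4, Gpx2, Gpx4 and Sod3. Against sh-Glud1, Nqo1 differed by −0.19 ± 0.24 in OTC (edgeR adjusted p = 0.553) and rose by 1.07 ± 0.25 in WT (edgeR adjusted p = 0.000636), where all sh-Gls2 livers lay above all sh-Glud1 livers. Gclc rose by 0.58 ± 0.18 in OTC (edgeR adjusted p = 0.00741) and had 0.27 ± 0.17 in WT (edgeR adjusted p = 0.244). Nfe2l2 passed in neither strain (0.31 ± 0.17 and 0.23 ± 0.17, edgeR adjusted p = 0.144 and 0.311). Of the other genes that rose in both strains against control, Prdx6 passed in neither against sh-Glud1, and Keap1 and Cbr3 passed in WT only.

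**Figure D5:**
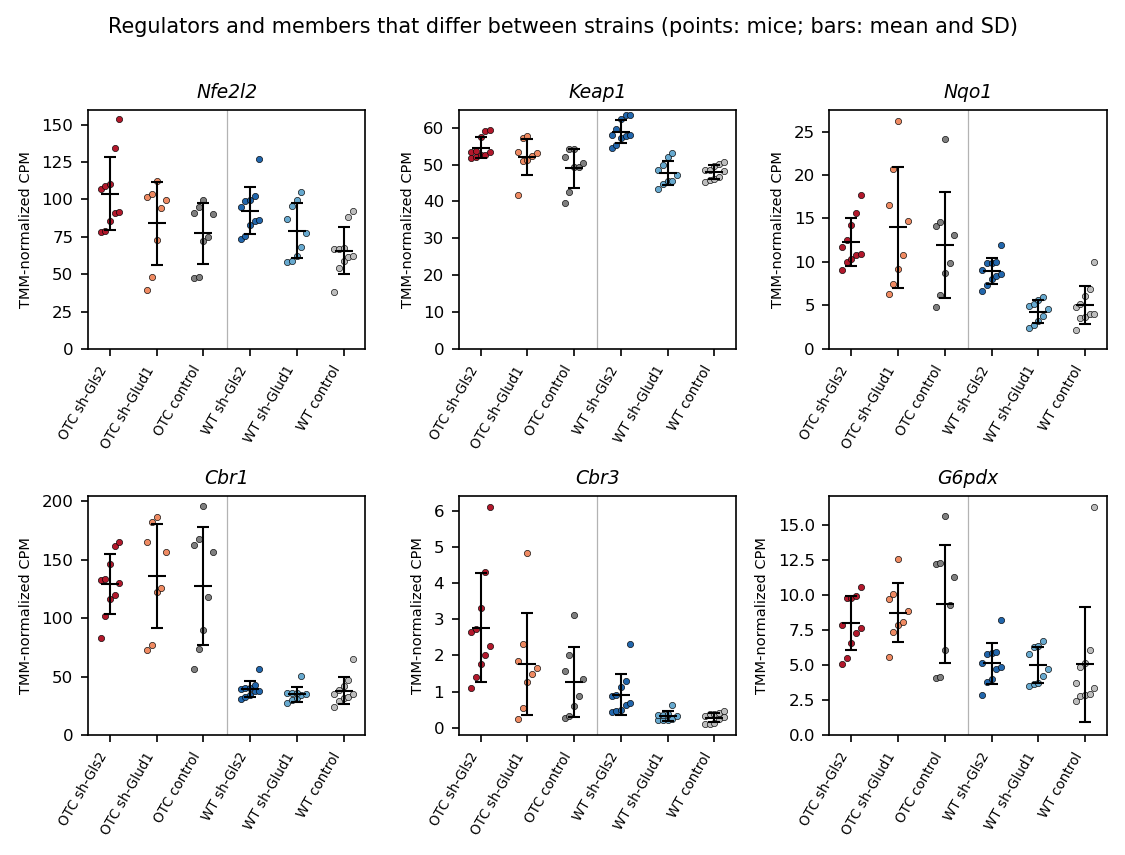
TMM-normalized CPM (vertical axis, from 0) of Nfe2l2, Keap1, Nqo1, Cbr1, Cbr3 and G6pdx in the 6 groups (horizontal axis); points are mice and bars the mean and SD. The mean of Cbr1 is 127.6 CPM for OTC control livers and 38.1 CPM for WT control livers, and 1 WT control library stands at 16.3 CPM for G6pdx.

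Between the strains under the control vector, the 40 genes moved both ways, near the share of all genes. In OTC controls 10 of 40 were higher than in WT controls (25%, against 19.9% of all tested genes) and 10 lower (25%, against 16.4%; 36.3% of all were called either way), with a median log2 fold change of 0.03 beside 0.02 over all genes. Among the 36 genes with a median of at least 10 reads in every group, 8 were higher and 10 lower. None of the 40 had ranges that did not overlap (1.5% of all tested genes did upward and 1.91% downward). With limma on TPM 12 were higher and 4 lower, where the median over all genes was 0.10 with a pseudocount of 1 and 0.12 with 0.1. Without m03 and m67 the counts were 9 higher and 6 lower, some of them genes not called with all libraries. The calls of Sqstm1, Gclc, Txn1, Glrx, Taldo1, Prdx4, Gpx2 and Gpx3 were lost there. With only the compared groups in the fit the counts were 4 higher and 7 lower. The strains differ in background as well as in Otc, and these cannot be told apart. This comparison shares its control libraries with the sh-Gls2 comparisons above.

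The enzymes that reduce quinones and carbonyls stood higher in OTC. Cbr1 was at 56.9 to 195.6 CPM (median 137.1) in OTC controls, against 23.98 to 65.3 CPM (median 35.4) in WT controls, and 7 of 8 OTC livers lay above every WT liver (1.74 ± 0.19, edgeR adjusted p = 4.31e-10). Its level stayed near these values under both hairpins, at medians of 131.4 and 141.4 CPM in OTC sh-Gls2 and OTC sh-Glud1 livers and of 38.4 and 35.3 CPM in WT sh-Gls2 and WT sh-Glud1 livers. Cbr3, with 0.258 to 3.13 CPM in OTC controls against 0.0963 to 0.477 CPM in WT controls, was higher by 2.14 ± 0.44 (edgeR adjusted p = 0.000157), and by 0.95 on the scale of log2(TPM + 1), which understates low genes.

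Nqo1 was at 4.79 to 24.2 CPM (median 11.5) in OTC controls, against 2.13 to 10.03 CPM (median 4.41) in WT controls, a log2 fold change of 1.24 ± 0.24 (edgeR adjusted p = 7.29e-05). Ephx1 was higher by 0.44 ± 0.17 (edgeR adjusted p = 0.0347), lost without any 1 of 6 single libraries. G6pdx was at 4.08 to 15.6 CPM (median 10.3) in OTC controls, against 2.47 to 16.3 CPM (median 3.54) in WT controls, where m13 alone exceeded 6.12 CPM. It was higher by 0.90 ± 0.26 (edgeR adjusted p = 0.00511), and by 1.54 without m13, m03 and m67. The call was lost with mouse number as a covariate (0.65, edgeR adjusted p = 0.0683) and with only the compared groups in the fit (0.89, edgeR adjusted p = 0.0696). Ikbkg on the opposite strand and the retrogene G6pd2 share 16.9% of the 50-mers of G6pdx.

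Gss was higher by 0.36 ± 0.08 (edgeR adjusted p = 0.000618) and Gpx4 by 0.27 ± 0.08 (edgeR adjusted p = 0.00713). Gpx2 had 17 reads in 8 OTC controls, of which 8 were from m35, against 2 in 10 WT controls, a ratio of 10.5 (95% counting interval 2.5 to 93.9), or 6.42 (1.33 to 61) without m35. Its fitted change was 2.77 ± 1.002 (edgeR adjusted p = 0.0257), lost without m35 or without m03 and m67 (edgeR adjusted p up to 0.128), and 4.14 without WT control m77. Gpx3 was higher by 0.57 ± 0.23 (edgeR adjusted p = 0.044), lost without any 1 of 10 single libraries, and its log2 fold change was 0.07 without m03 and m67. Glrx was higher by 0.28 ± 0.10 (edgeR adjusted p = 0.0295), lost without m03 and m67 (0.07, edgeR adjusted p = 0.603) and without any 1 of 5 single libraries.

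Lower in OTC were 3 of 6 peroxiredoxins and 3 of the 4 superoxide and hydrogen peroxide enzymes (16.4% of all tested genes were lower). Prdx1 differed by −0.22 ± 0.05 (edgeR adjusted p = 0.000234), Prdx4 by −0.21 ± 0.08 (edgeR adjusted p = 0.0438) and Prdx6 by −0.30 ± 0.07 (edgeR adjusted p = 0.000438). Cat averaged 2379 ± 778 CPM (SD, n = 8) in OTC controls, against 3440 ± 351 CPM (SD, n = 10) in WT controls (−0.53 ± 0.13, edgeR adjusted p = 0.00159), with m03 at 746.1 CPM. Sod3 differed by −0.42 ± 0.10 (edgeR adjusted p = 0.000772) and Sod2 by −0.19 ± 0.05 (edgeR adjusted p = 0.0058). The calls of Prdx1, Sod2 and Prdx4 were lost with limma on TPM. That of Prdx4 was also lost without m03 and m67 (−0.10, edgeR adjusted p = 0.363) and without any 1 of 8 single libraries.

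Gclc averaged 258 ± 101.9 CPM (SD, n = 8) in OTC controls, against 374 ± 63.3 CPM (SD, n = 10) in WT controls (−0.53 ± 0.18, edgeR adjusted p = 0.0155). Its call was lost without m03 and m67 (edgeR adjusted p up to 0.16). Sqstm1 (−0.23 ± 0.08), Txn1 (−0.18 ± 0.06) and Taldo1 (−0.24 ± 0.07) were lower by edgeR (adjusted p = 0.0174, 0.0156 and 0.00508), and all 3 calls were lost without m03 and m67 and with limma on TPM, that of Sqstm1 also without m67 alone and that of Txn1 without m03 alone. Nfe2l2 (0.24 ± 0.17) and Keap1 (0.03 ± 0.05) did not pass the test between strains (edgeR adjusted p = 0.279 and 0.652). Beside the lists that follow, 19.9% of all tested genes were higher and 16.4% lower in OTC controls. Of 29 tested NRF2 targets outside the 40, 7 were higher and 2 lower in OTC controls. The smallest adjusted p was that of the transferase Gstm1, at 2709 CPM in OTC controls against 1122 CPM in WT controls (1.27 ± 0.18, edgeR adjusted p = 4.75e-07). Of the lists described above, partners and regulators of NRF2 had 5 of 16 higher and 4 lower. The list of glutathione breakdown, use and transport had 4 of 21 each way. Other NADPH suppliers had 2 of 13 higher and 3 lower, and other thiol and selenium enzymes 4 of 19 higher and 5 lower. Among markers, 4 of 6 for dividing cells were lower in OTC controls (2.58 to 4.38 CPM against 3.07 to 8.61 CPM in WT controls) and 0 of 9 macrophage markers passed the test, and their part in these differences was not tested.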

How the data were processed

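RNA was taken from whole liver, and libraries were made with a stranded mRNA kit and 12 PCR cycles, per the labels' protocols. The authors deposited raw read counts per gene and TPM values for 55 libraries; the submitters' processing notes name CASAVA 1.8.2, FastQC and GRCm38. The aligner, the counting tool, its use of strand and the annotation are not given in the sources used here. The count table held 24475 symbols, of which 4775 had no count, and column names were matched to mouse numbers in the titles. The mouse number of 1 OTC control column matched no title, and that library is called unnumbered.

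Counts were scaled by TMM and tested with edgeR 4.0.16 (quasi-likelihood F test, 6 group terms over all 55 libraries, R 4.3.3) on 13311 genes kept by filterByExpr (minimum count 10, minimum total 15). P-values were adjusted by Benjamini-Hochberg over all these genes in each of 9 comparisons, with a threshold of 0.05, and measure the spread between mice. SE is the size of the log2 fold change over the square root of F. Gene positions and 50-mers shared between transcripts come from GENCODE M21, and promoters from RefSeq. No 2 libraries were alike: over 1485 pairs the smallest chi-square per degree of freedom was 10.9. The procedure was tested on simulated data. Alternatives were DESeq2 1.42.0, its size factors, other filters, limma 3.58.1 on log2(TPM + 1) and log2(TPM + 0.1), other sets of libraries and each library left out. Leaving libraries out of the ratios of summed reads was chosen after seeing the data.

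Values over the libraries are given for genes called with a log2 fold change of at least 0.8 in size in any comparison and for Nfe2l2 and Keap1; other lists give up to 4 genes by smallest adjusted p. The 40 genes and all lists were chosen with earlier results of these data known.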

Additional observations from a re-analysis of the deposited data

Results flagged for a closer look

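Among the 13 genes described by library, 19 of 78 sets of values (1 gene in 1 group) held a library set apart from its group by Dixon's test. Chance alone gives this in about 1 in 20 sets of normally distributed values, and CPM near 0 are not so distributed. For Gpx2 in WT control, WT sh-Glud1 and OTC sh-Glud1 livers, 1 library held all reads, which this test always flags. The 19 are therefore not comparable with that rate. Few reads lie behind the values of Gpx2, Ggt1, Slc7a11 and Cbr3.

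OTC sh-Gls2 m21 was highest for Slc7a11 at 2.83 CPM (next 1.24), and m74 for Ggt1 at 7.66 CPM (next 2.57). WT sh-Gls2 m45 was highest for both Cbr1 at 56.2 CPM (next 42.9) and Cbr3 at 2.31 CPM (next 1.28), and m79 was lowest for Gsr at 89.7 CPM (next 109.9).

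OTC sh-Glud1 m33 was highest for Srxn1 at 130.0 CPM (next 73.8) and Cbr3 at 4.84 CPM (next 2.31), m65 was lowest for Keap1 at 41.8 CPM (next 50.8), and m23 held the only Gpx2 reads of its group at 0.114 CPM. WT sh-Glud1 m32 was highest for Cbr1 at 50.3 CPM (next 35.9), m57 for Gpx3 at 3.78 CPM (next 2.83), and m56 for Cbr3 at 0.623 CPM (next 0.367) and for Gpx2 at 0.0623 CPM with the others at 0.

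OTC control m35 was highest for Gpx2 at 0.397 CPM (next 0.162). WT control m07 was highest for Srxn1 at 82.8 CPM (next 43.9) and Ugdh at 289.9 CPM (next 221.7), m13 for G6pdx at 16.3 CPM (next 6.12), m02 for Ggt1 at 0.141 CPM (next 0.0597), and m77 for Gpx2 at 0.119 CPM with the others at 0. The cause of these values was not tested.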

How the results depend on the processing

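Of 110 called log2 fold changes of the 40 genes, 84 kept their call under every alternative that tested the gene. Another 26 lost it under at least 1, and 0 changed sign, over 2991 alternative values. Some alternatives did not test genes with few reads. In WT under sh-Gls2 against control, Gpx2 had 25 alternative values and Gsr 29. Between OTC and WT controls 20 genes were called, and 11 (4 higher, 7 lower) when only the 2 groups entered the fit, which has fewer samples; leaving out 1 library gave 16 to 21. With 1 library left out, sh-Gls2 against control had 20 to 26 calls in OTC and 23 to 24 in WT, and sh-Gls2 against sh-Glud1 18 to 22 in OTC and 21 to 22 in WT. Without m03 and m67, OTC sh-Gls2 against control had 16 higher and 3 lower, some of them genes not called with all libraries. The sh-Glud1 comparisons and both strain differences had 0 calls under every alternative run. Between sh-Gls2 and sh-Glud1, calls lost were Cbr3 and Glrx in WT and Txn2, Txnrd1, Srxn1 and Gpx1 in OTC. On the scale of log2(TPM + 1), Cbr3 rose by 0.64 in WT under sh-Gls2, against 1.71 from counts. Depth limits Gpx2, Ggt1 and Slc7a11. No paired analysis was possible because the mouse numbers in the labels do not repeat across groups.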
